A study of Homo sapiens with 6 samples.

Results

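The baseline transcriptome of EndoC-βH1, a line of human β cells, was described in its vehicle-treated state from the 3 RNA-seq libraries labelled DMSO, which are 3 of the 6 libraries of the series. Libraries were chosen by their label alone. The cells are labelled wild type. They spent a starvation step of 1 h at 0.5 mM glucose, followed by 1 h at either 0.5 or 20 mM, and DMSO was present throughout. The glucose concentration of the second step is not given for each library, so the group may hold either condition. Libraries of polyadenylated RNA were made with a TruSeq kit of which the version, stranded or not, is not stated for each library, and were sequenced as read pairs of 51 bp. EndoC-βH1 is a single line that was derived from human fetal pancreas by introducing a viral large T antigen under an insulin promoter and human telomerase, so it stands for dividing, immortalized β cells and not for the mature islet. The study's methods state in general that in vitro experiments used independent replicates unless otherwise noted, but the labels do not say whether these 3 samples came from separate cultures, so the spread given here may be partly or wholly technical.

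β cells store insulin in dense core granules together with chromogranins and release it when glucose metabolism raises ATP, closes KATP channels and opens voltage-gated calcium channels. Their identity is kept by transcription factors such as PDX1, NKX6-1, NEUROD1 and MAFA. In the adult islet, glucagon comes from α cells, somatostatin from δ cells and pancreatic polypeptide from PP cells. Most adult β cells do not divide.

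Levels are given as CPM (each gene's counts scaled to the same total of gene counts in every library) where 1 gene is followed, and as TPM (the same after division by the summed length of the gene's exons) wherever genes are compared. All values are means ± SD over n = 3 libraries unless each library is given. DMSO replicates 1, 2 and 3 held 29402440, 26921225 and 20486391 counts on genes. At these depths 3 counts, used as the floor of detection in each library, were worth 0.102, 0.111 and 0.146 CPM, a limit that covers counting error only. Of 60671 gene identifiers, 32192 had a count in at least 1 library and 28479 had none. A mean of at least 1 CPM was reached by 15413 genes, which held 99.7% of all counts and included 12773 nuclear protein-coding genes, 1555 long noncoding RNA (lncRNA) genes and 915 pseudogenes. Of 19842 nuclear protein-coding genes, 12832 (64.7%) reached 1 TPM, and 4881 (24.6%) had no more than 3 counts in every library. The median over all 19842 was 8.01 TPM, and the medians of the gene lists below are to be read beside it. Counts of list members at 1 TPM are to be read beside the 64.7%, and counts at the floor beside the 24.6%.

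The most abundant transcripts came from cytoskeleton, secretory granule, chaperone and mitochondrial genes. By CPM, which does not correct for gene length, ACTG1, which encodes γ-actin, led with 4527, 3850 and 4681 in replicates 1 to 3. GNAS, whose best known product is the stimulatory G protein α subunit, followed with 4568, 4427 and 4037 CPM. CHGA, which encodes the granule protein chromogranin A, had 3673, 3411 and 3839 CPM. ACTG1 was lowest in replicate 2, GNAS in replicate 3 and CHGA in replicate 2, so no library was lowest for all of these genes. The 25 genes of highest mean CPM also held MT-ND4, MT-CO1, MT-CO2, MT-ND2, MT-ND5 and MT-CYB, which encode respiratory chain subunits, and the chaperones HSP90AA1, HSP90AB1, HSP90B1, CANX and HSPA8. DSP, which encodes the desmosome protein desmoplakin, had 2481 ± 131 CPM, and ACVR1C, an activin receptor, closed the 25 with 1433 ± 23.0 CPM. ACTB, FTL (ferritin light chain), the translation factors EIF4G2 and EEF1A1, PSAP and SCARB2 (lysosomal proteins), APP, CPE and TTR filled the other places. No gene dominated the libraries, since the 20 most abundant genes held 4.91%, 5.09% and 5.07% of the counts and 1371 ± 26.9 genes were needed to reach 50%.

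**Figure D1:**
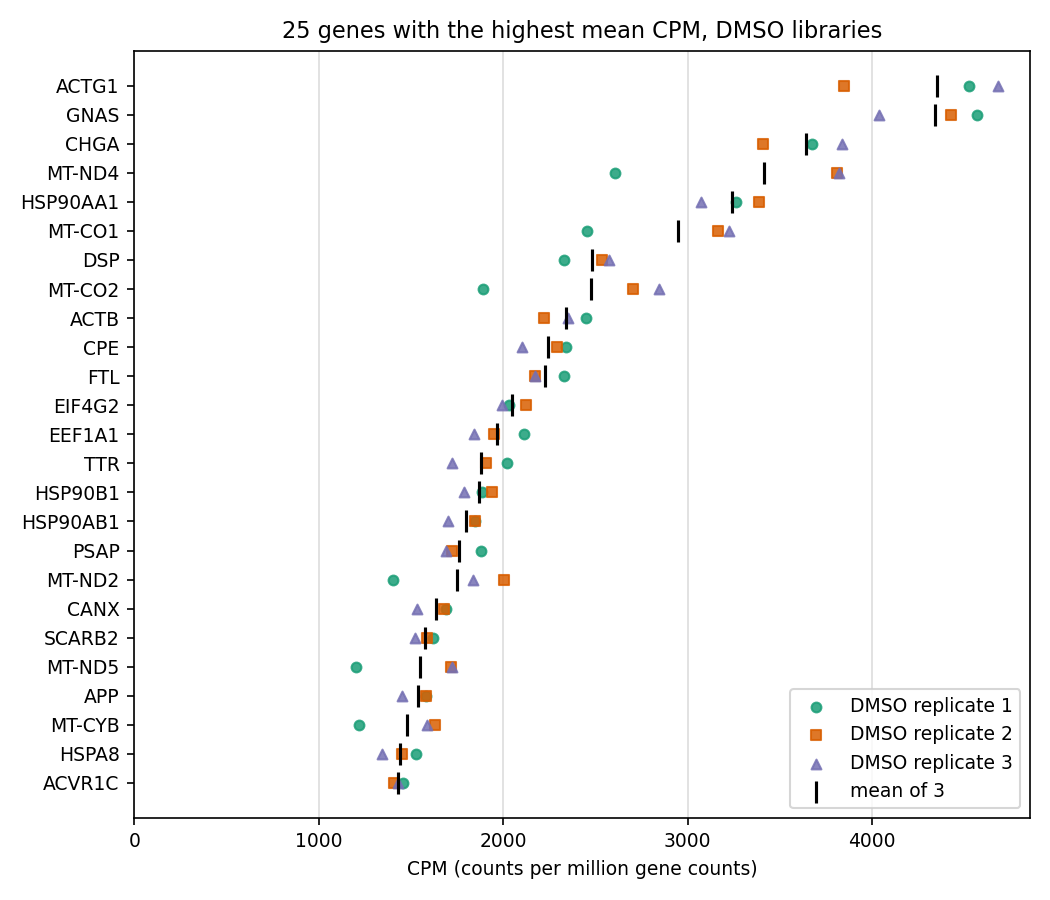
CPM of the 25 genes with the highest mean CPM (horizontal axis, linear, starting at 0) in each DMSO library (coloured points) with the mean of the 3 (black bar). The mitochondrial genes, such as MT-ND4 with 2605, 3810 and 3824 CPM, are lower in replicate 1 than in the other libraries, and ACTG1 is lowest in replicate 2.

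Per exon length, insulin stood near the top. Among nuclear protein-coding genes FTL ranked first with 10781 ± 475 TPM, followed by INS with 8193 ± 2293 TPM and by TMSB10, an actin-sequestering thymosin, with 5503 ± 289 TPM. CHGA (5078 ± 285 TPM), ACTG1 (4531 ± 451 TPM), TTR (3651 ± 310 TPM) and CPE (3036 ± 185 TPM) came next, and RPS12, HSP90AA1 and HSP90AB1 completed the first 10. FTL, the actins and RPS12 have close copies elsewhere in the genome, so how reads were divided among them is uncertain. The order also depends on the length given to a gene. With the length of the canonical transcript in place of all exons, an alternative chosen after seeing the data, TTR (7795 TPM) and INS (6995 TPM) stood above FTL (6517 TPM).

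Among lncRNA genes NORAD was highest with 793, 841 and 814 CPM, followed by FGD5-AS1 (406 ± 14.3 CPM) and LINC00261 (224 ± 8.67 CPM), a transcript from next to FOXA2. SNHG29, SNHG14, EBLN3P, OIP5-AS1, MALAT1, MEG3 and LINC00667 made up the rest of the first 10, between 159 ± 12.6 and 87.1 ± 7.04 CPM. Genes of the opposite strand overlap 83.7% of the exon length of MALAT1 and 21.9% of that of LINC00667, so the levels and places of both are uncertain. LncRNA genes together held 1.29 ± 0.03% of the counts. The 13 protein genes of the mitochondrial genome had a median of 7068 TPM, and all mitochondrial genes held 1.57%, 2.13% and 2.12% of the counts. Ribosomal protein genes held 2.07 ± 0.13%, and 80 of 82 reached 1 TPM, with a median of 270 TPM.

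The 7 islet hormone genes spanned the whole range of expression. INS (GRCh37 chr11:2181009-2182451, minus strand) had 7150, 6607 and 10823 TPM. SST (chr3:187386700-187388182, minus strand), which encodes somatostatin, had 1593, 1421 and 1507 TPM. IAPP (chr12:21507893-21532914, plus strand), which encodes the amyloid polypeptide secreted with insulin, had 41.8, 40.2 and 34.4 TPM. INS was thus highest in replicate 3 and the ranges of these genes did not overlap. GCG (chr2:162999392-163008914, minus strand), the glucagon gene, had 2.49, 2.64 and 2.41 TPM, from 41, 40 and 28 counts. PYY had 0.812 ± 0.214 TPM, and GHRL (ghrelin) and PPY (pancreatic polypeptide) had no more than 3 counts in every library.

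The order INS, SST, IAPP, GCG was the same in all 3 libraries and with either other choice of length. INS was 5.44 ± 1.51 times SST in TPM, SST 39.1 ± 4.28 times IAPP, and SST 602 ± 55.2 times GCG. The size of the last ratio rests on the length, as it was 284 with the canonical transcripts. Of the exon length of INS, 37.5% is shared on the same strand with the readthrough gene INS-IGF2, which had 8, 4 and 3 counts. Whether reads in the shared part were left uncounted was not tested. Since these are bulk libraries, fewer cells that express a gene and less RNA per cell cannot be told apart, and so whether SST came from INS-expressing cells was not tested.

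To show what lies before these genes, the 250 bases upstream of the start site of INS, SST and GCG are printed 5′ to 3′ on the strand of the gene (RefSeq, GRCh38.p14). Capitals mark TAAT or its reverse complement ATTA, the core letters of homeodomain sites, CANNTG, the E-box of bHLH factors, and TGACGTCA, the palindromic cAMP response element.
INS (chr11:2161210-2161459): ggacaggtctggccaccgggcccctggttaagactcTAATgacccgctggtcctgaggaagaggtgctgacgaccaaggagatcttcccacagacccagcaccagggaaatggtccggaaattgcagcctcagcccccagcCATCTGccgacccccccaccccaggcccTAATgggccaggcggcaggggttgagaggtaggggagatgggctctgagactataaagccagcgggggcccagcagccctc
SST (chr3:187670395-187670644): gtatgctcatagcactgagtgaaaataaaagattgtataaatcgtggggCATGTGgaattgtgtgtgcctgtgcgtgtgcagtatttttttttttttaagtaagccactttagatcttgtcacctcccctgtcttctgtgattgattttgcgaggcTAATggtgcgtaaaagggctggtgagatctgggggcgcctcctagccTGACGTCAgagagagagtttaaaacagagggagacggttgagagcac
GCG (chr2:162152248-162152497): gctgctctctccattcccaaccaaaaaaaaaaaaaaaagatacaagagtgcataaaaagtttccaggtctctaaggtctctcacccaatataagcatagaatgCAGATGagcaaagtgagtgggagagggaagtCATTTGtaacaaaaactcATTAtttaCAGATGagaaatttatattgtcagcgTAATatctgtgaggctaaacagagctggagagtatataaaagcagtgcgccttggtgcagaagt
TAAT in either orientation occurs 2 times before INS, 1 time before SST and 2 times before GCG, and CANNTG occurs 1, 1 and 3 times. TGACGTCA occurs before SST only. Over 35116 promoters of the same table, 47.4% held TAAT, 61.8% CANNTG and 1.65% TGACGTCA in such a window. These matches are letters in a sequence and were not tied to the levels.

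All 12 genes for granins and prohormone processing were expressed, with a median of 716 TPM. CHGA was highest at 5148, 4765 and 5322 TPM. CPE, the carboxypeptidase that trims basic residues from prohormones, had 3178, 3103 and 2826 TPM. CHGB had 753, 759 and 697 TPM, and its level did not differ beyond the spread from that of SCGN (727 ± 29.3 TPM), a calcium sensor, although 60.5% of the exon length of SCGN is shared with another gene of the same strand. The convertases that cut proinsulin were both present. PCSK1 had 460, 433 and 410 TPM and PCSK2 284, 263 and 258 TPM. SCG5, a chaperone of PCSK2, had 1391 ± 106 TPM, with 51.4% of its exon length shared on the same strand. SCG3 had 1065 ± 56.9 TPM and SCG2 705 ± 42.1 TPM. PCSK1N, an inhibitor of PCSK1, varied most, with 360, 296 and 698 TPM, and was highest in replicate 3. PAM, the amidating enzyme, had the lowest mean with 120 ± 4.67 TPM, but did not differ beyond the spread from VGF (141 ± 40.8 TPM).

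**Figure D2:**
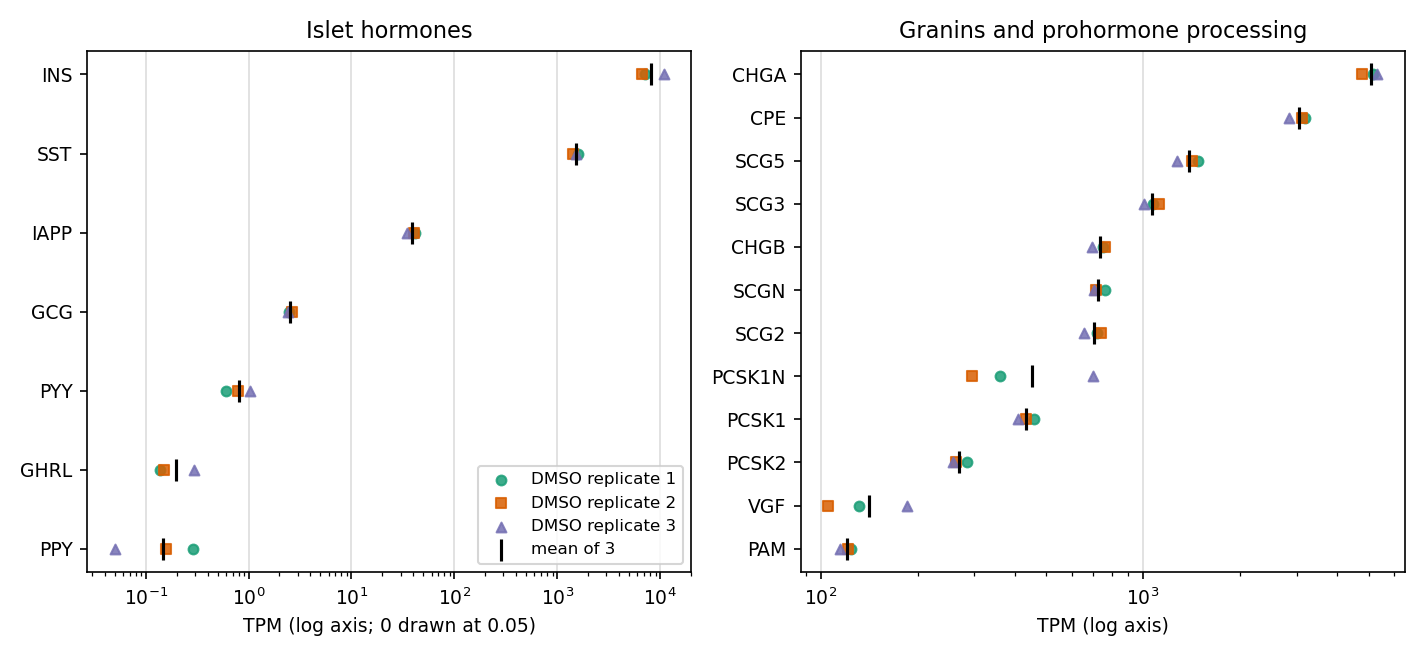
TPM on a log axis of the 7 islet hormone genes (left) and the 12 genes for granins and prohormone processing (right) in each DMSO library (coloured points) with the mean (black bar). The hormones run from INS near 8193 TPM to PPY near the floor, while the granin genes lie between 120 and 5078 TPM, and INS, PCSK1N and VGF show replicate 3 to the right of the others.

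Of 16 genes of the insulin granule and exocytosis, 15 reached 1 TPM (median 117 TPM). The granule membrane proteins PTPRN2 (622 ± 64.5 TPM) and PTPRN (510 ± 43.5 TPM), known as islet autoantigens, were highest, although their order turned with the canonical transcript lengths. SYT13, SYT7 and STX1A, which act in granule fusion, had 300 ± 18.7, 193 ± 6.62 and 177 ± 9.94 TPM, G6PC2, a glucose-6-phosphatase of islets, had 194 ± 5.42 TPM, and SLC30A8, the zinc transporter of the granule, had 48.9 ± 2.30 TPM. RIMS2, a scaffold of the release site, had the lowest mean of the 15 with 15.5 ± 1.51 TPM. It did not differ beyond the spread from RAB3A (20.4 ± 3.69 TPM). SYTL4 (granuphilin), a granule docking protein, was at the floor with at most 3 counts in every library, and 39.0% of its exon length is overlapped on the opposite strand.

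Few of the candidate genes for glucose entry and phosphorylation were high. The hexokinases HK1, with 2.22, 1.76 and 1.31 TPM, and HK2, with 0.244, 0.0796 and 0.173 TPM, were low in every library. Among glucose transporters SLC2A1 had 25.8, 23.6 and 23.2 TPM. SLC2A2, the transporter of rodent β cells and liver, had 1.52, 2.07 and 2.22 TPM, and SLC2A3 was at the floor. SLC2A1 was 12.9 ± 3.52 times SLC2A2, and 23.6 times with the longest or the canonical transcript as length. In all 8 of the 10 genes reached 1 TPM, with a median of 2.52 TPM.

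For the KATP channel, the pore subunit KCNJ11 had 39.2 ± 5.50 TPM and the sulfonylurea receptor ABCC8 12.3 ± 0.440 TPM, but ABCC8 (41.2 TPM) was above KCNJ11 (34.4 TPM) with the canonical transcript lengths, so no order is drawn. The paralogs KCNJ8 and ABCC9 had 12.2 ± 1.34 and 0.217 ± 0.0620 TPM. Of the calcium channel pore subunits CACNA1H, a T-type channel, was highest with 47.0, 48.9 and 71.1 TPM. CACNA1D, an L-type channel of β cells, had 13.4, 14.7 and 13.8 TPM, and CACNA1C had 8.10, 8.53 and 9.27 TPM. CACNA1H was highest in replicate 3, as INS was. Of the 12 channel genes 10 reached 1 TPM, and CACNA1A (0.611 ± 0.0161 TPM) and ABCC9 did not.

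Receptors that tune secretion were unevenly represented. SSTR3, a somatostatin receptor, led the 15 with 205, 200 and 207 TPM. It was followed by CASR, the calcium-sensing receptor, with 122 ± 2.39 TPM, by FFAR1, a fatty acid receptor, with 105 ± 12.9 TPM and by SSTR2 with 100 ± 2.38 TPM, the last pair not differing beyond the spread. GPR119, ADRA2A and IGF1R lay between 48.7 and 32.7 TPM. The incretin receptors differed. GIPR had 14.3 ± 0.841 TPM, whereas GLP1R had 0.539, 0.493 and 0.551 TPM and GCGR, the glucagon receptor, 0.464 ± 0.0556 TPM. GALR1 had no count. In total 12 of the 15 receptors reached 1 TPM.

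The cells are labelled as β cells, and the defining genes INS, PDX1, NKX6-1 and NEUROD1 were detected in every library. Of 38 islet identity factors 33 reached 1 TPM, with a median of 34.9 TPM. INSM1, a zinc finger factor of endocrine cells, had 1640, 1390 and 1635 TPM and ranked 21 among nuclear protein-coding genes. NEUROD1, a bHLH factor that binds the insulin promoter, had 740, 710 and 708 TPM. The ranges of INSM1 and NEUROD1 did not overlap, but their order turned with canonical transcript lengths, where NEUROD1 had 1432 TPM and INSM1 940 TPM. The pioneer factor FOXA2 (626, 599 and 650 TPM) and the LIM homeodomain factor ISL1 (609, 610 and 591 TPM) did not differ beyond the spread. PDX1 followed with 562, 577 and 585 TPM, and NKX6-1 with 218, 210 and 236 TPM. RFX6 (164 ± 10.7 TPM), TSHZ1 (158 ± 10.0 TPM) and NKX2-2 (154 ± 42.0 TPM) overlapped one another in mean ± SD, and 43.9% of the exon length of NKX2-2 is overlapped by a gene on the opposite strand. PAX6 had 81.9 ± 2.13 TPM and HNF4A 46.1 ± 0.582 TPM, and 26.3% of the exon length of PAX6 is overlapped on the opposite strand.

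MAFA, a factor of mature β cells, had 23.0, 23.2 and 32.1 TPM. It was highest in replicate 3. FOXA2 was 76.9 ± 2.23 times FOXA1. PAX4, which is active in developing β cells, had 3.29 ± 0.239 TPM. Of the factors of α cells, IRX1 had 2.03 ± 0.743 TPM and IRX2 90.1 ± 10.8 TPM. The SOX factors differed in level. SOX11 had 120 ± 3.65 TPM and SOX4 109 ± 6.36 TPM. SOX9, which marks duct and progenitor cells, had 1.25, 1.44 and 0.781 TPM, and NEUROG3, GATA6, ONECUT1 and POU3F4 were at the floor, with no count at all for ONECUT1 and POU3F4. Of the exon length of POU3F4, 21.7% is overlapped on the same strand and 24.1% on the opposite strand, so its count is uncertain. GATA4, the paralog of GATA6, had 93.9 ± 4.12 TPM.

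**Figure D3:**
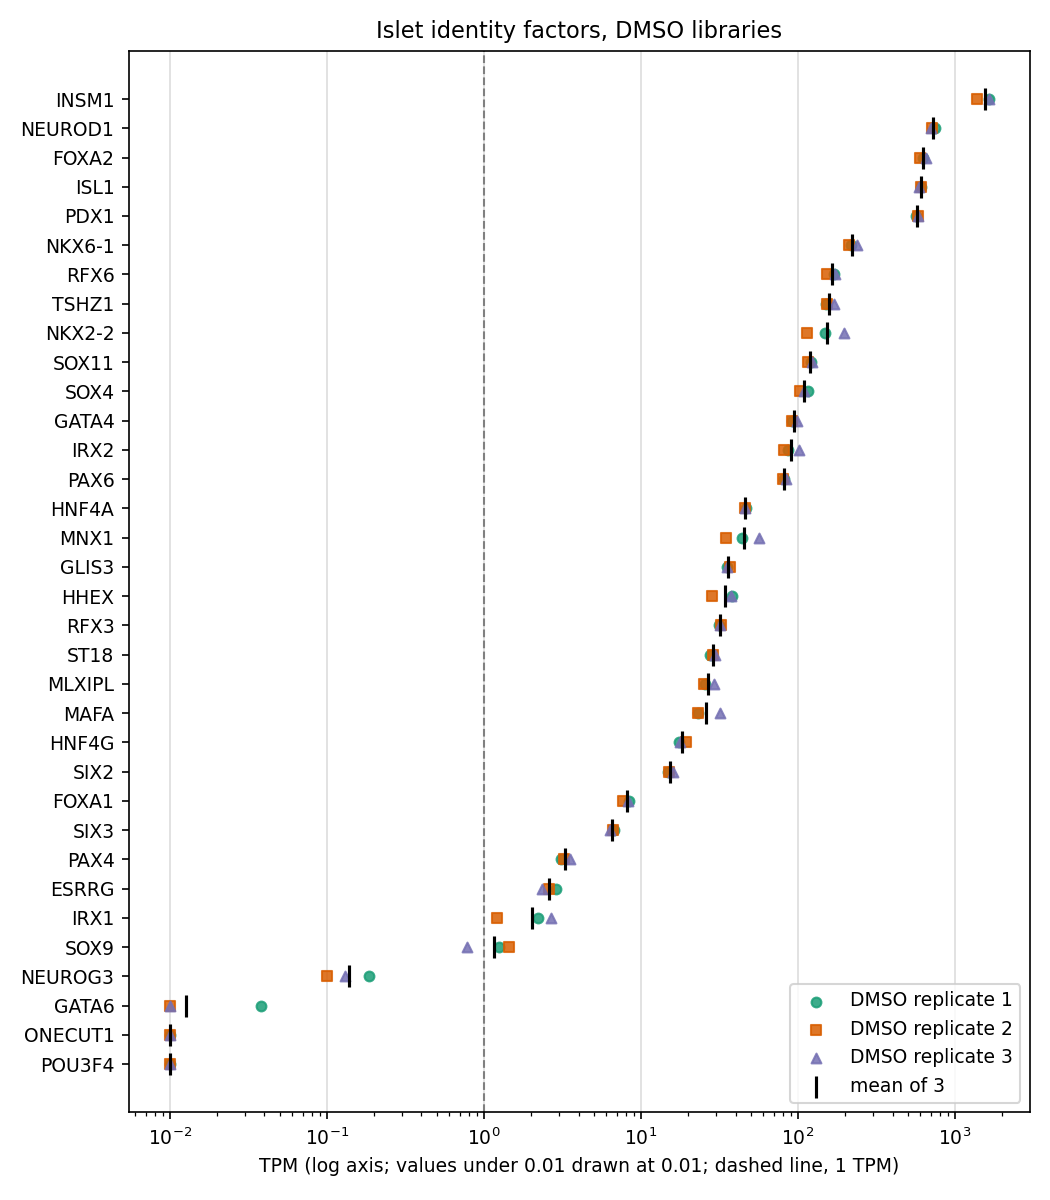
TPM on a log axis of 34 of the 38 islet identity factors, ordered by mean, in each DMSO library (coloured points) with the mean (black bar); the dashed line is 1 TPM. The points of a gene lie close together for most factors, 30 of those drawn lie above the line, and NEUROG3, GATA6, ONECUT1 and POU3F4 lie below it.

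Genes known from the other islet cells were partly present. Of 14 such genes 11 reached 1 TPM. TTR (3935, 3699 and 3320 TPM) and GC (1972, 1870 and 1658 TPM), both carrier proteins made in α cells among other cells, were the highest, and both were lowest in replicate 3. LOXL4, GHRL and PPY lay below 1 TPM. Of the defining hormones, SST was high with 1507 ± 85.7 TPM, whereas GCG and PPY had at most 41 counts in any library. The carriers TTR and GC were among the abundant transcripts.

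Of 30 genes for monogenic diabetes 23 (76.7%, against 64.7% of all nuclear protein-coding genes) reached 1 TPM, with a median of 35.5 TPM. After INS, NEUROD1 and PDX1 came RFX6 and KLF11 (157 ± 2.16 TPM), which did not differ beyond the spread. BLK, GATA6, NEUROG3 and PTF1A were at the floor. Of 12 genes that are held low in adult β cells, known as disallowed genes, 11 reached 1 TPM, with a median of 27.3 TPM. LDHA (lactate dehydrogenase A) had 202, 190 and 166 TPM and SLC16A1, the monocarboxylate transporter, had 36.2, 37.3 and 34.0 TPM. OAT (158 ± 8.22 TPM) was also high, and PDGFRA was at the floor. No adult islet sample is in the series, so these levels are not set against one.

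Cell cycle genes were expressed throughout. All 20 S phase genes exceeded 10 TPM, with a median of 145 TPM, and 19 of 20 genes of G2 and mitosis did so, with a median of 128 TPM. PCNA, the replication clamp, had 1529, 1551 and 1518 TPM. MCM7 (507 ± 19.1 TPM), of the replicative helicase, and RRM2 (430 ± 19.2 TPM), of ribonucleotide reductase, came next. TOP2A had 612, 651 and 615 TPM and UBE2C 361, 343 and 356 TPM. MKI67, which encodes the proliferation antigen Ki-67, had 130, 164 and 163 TPM and was lowest in replicate 1, as were CENPF (30.3, 43.1 and 38.9 TPM) and CENPE (15.3, 23.4 and 22.3 TPM). NUSAP1, the exception, had 0.815 ± 0.332 TPM, and most of its exon length is shared with another gene of the same strand, which makes its count uncertain.

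Of 20 cell cycle control genes 18 reached 1 TPM and 17 reached 10 TPM. Of the D cyclins, CCND3 had 76.7, 67.5 and 77.5 TPM, while CCND1 and CCND2 were at the floor. CDK4 (216 ± 9.79 TPM) was 10.2 ± 1.01 times CDK6, and 16.1 times with the longest or the canonical transcript as length. Of the exon length of CDK4 44.2% is overlapped by genes of the opposite strand, and of that of CDKN2C 20.4%, which makes these levels uncertain. The inhibitors CDKN2C (345, 340 and 351 TPM), CDKN1C (229, 191 and 301 TPM) and CDKN2A (112, 97.9 and 115 TPM) and the retinoblastoma gene RB1 (103 ± 6.22 TPM) were present. TERT had 8.13, 7.10 and 11.0 TPM. The counts do not tell the telomerase transgene from the chromosomal gene.

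**Figure D4:**
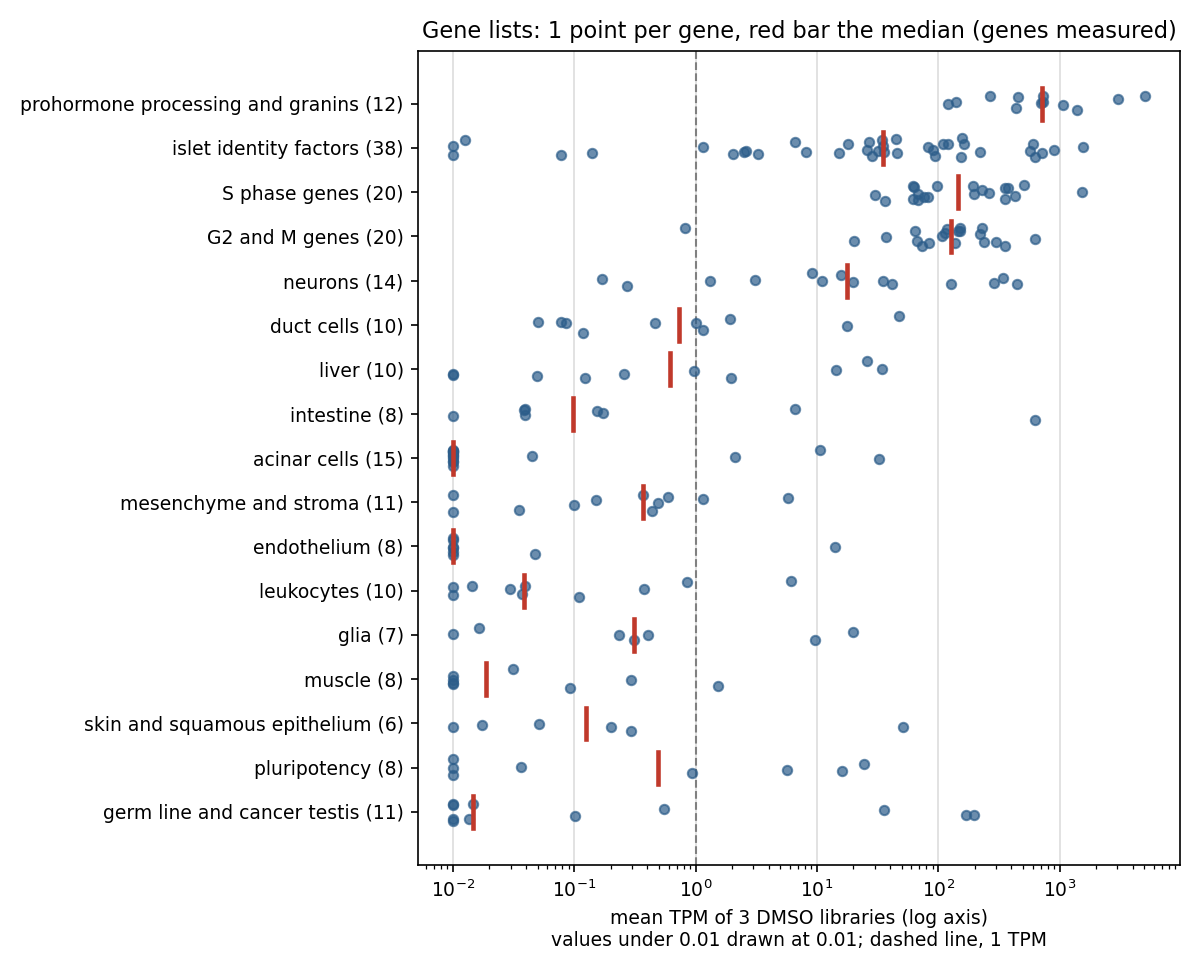
Mean TPM over the 3 DMSO libraries of the members of 17 gene lists on a log axis (1 point per gene, the red bar the median, the number of genes measured in brackets); values under 0.01 are drawn at 0.01 and the dashed line is 1 TPM. Granin, identity, cell cycle and neuron lists have medians between 17.9 and 716 TPM, while the medians of the other lists lie below 1 TPM.

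Genes of other lineages were mostly silent. Leaving out neurons, 12 lists of lineage markers held 111 genes, of which 28 reached 1 TPM and 58 had no more than 3 counts in every library. Of 15 acinar genes 12 were at the floor, including the digestive enzymes PRSS1, CTRB1, PNLIP and CPB1 and the acinar factor PTF1A with no count, but CPA1, a carboxypeptidase, had 33.9, 31.5 and 33.0 TPM. The acinar list summed to 28.7, 27.0 and 28.9 CPM. Of 10 duct genes KRT19, a keratin of simple epithelia, was highest with 47.7 ± 5.65 TPM, whereas KRT7 had 0.117 ± 0.0577 TPM. Of 11 mesenchyme genes only COL1A1 (5.74 ± 1.52 TPM) and COL1A2 (1.15 ± 0.109 TPM) reached 1 TPM, and VIM (vimentin), which is overlapped over 24.6% of its exon length on the opposite strand, and DCN were at the floor. Of 8 endothelial genes ESAM had 14.1 ± 0.724 TPM and the defining CDH5, TEK, KDR, TIE1 and PLVAP had no count. Of 10 leukocyte genes CD14 had 6.08 ± 0.489 TPM and CD3E and ITGAM had no count. The mesenchyme, endothelium and leukocyte lists summed to 18.5 ± 2.96, 9.84 ± 0.450 and 3.30 ± 0.0682 CPM.

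Some genes of other tissues were expressed. VIL1 (villin), known from the brush border of the intestine, had 650, 623 and 600 TPM, with 44.2% of its exon length overlapped by a gene of the opposite strand. CDX2, the intestinal homeobox factor, had 6.58 ± 0.217 TPM and FABP2 had no count. Of 10 liver genes 4 reached 1 TPM and 3 of these 10 TPM, while ALB and AFP were at the floor. Of the pluripotency list LIN28B (24.5 ± 0.994 TPM) and SOX2 (16.1 ± 2.16 TPM) were expressed, and NANOG, DPPA4 and TDGF1 had no count. Of the germ line list the X-linked MAGEA6 had 196 ± 10.6 TPM and MAGEA3 170 ± 14.2 TPM. MAGEA3 and MAGEA6 are nearly identical in sequence, so how their reads were divided is uncertain. PRAME had 35.8 ± 1.68 TPM, while DAZL and DDX4, which are markers of germ cells, were at the floor. Of 39 HOX genes 6 reached 1 TPM, HOXC4 (6.70 ± 0.220 TPM) being highest, and 29 were at the floor.

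The neuron list departed from the other lineages, with 12 of 14 genes at or above 1 TPM and a median of 17.9 TPM. STMN2, a microtubule regulator of growing axons, had 458, 471 and 409 TPM. SLC17A6, a vesicular glutamate transporter, had 341, 346 and 333 TPM and SYP (synaptophysin), a protein of synaptic-like vesicles that endocrine cells also carry, had 299, 284 and 276 TPM. GAD2, which makes GABA, had 35.2 ± 1.83 TPM, whereas its paralog GAD1 had 0.170 ± 0.0814 TPM. RBFOX3, a marker of neuronal nuclei, had 0.271 ± 0.0759 TPM.

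Genes for secretory protein folding were uniformly present. All 20 genes of a list of chaperones and stress factors of the endoplasmic reticulum reached 1 TPM. Their median was 268 TPM, and CALR led with 1684, 1626 and 1517 TPM. HSPA5 (677 ± 21.8 TPM), the main chaperone of the endoplasmic reticulum, XBP1 (624 ± 36.3 TPM), which is not a chaperone, and HSP90B1 (603 ± 28.0 TPM) followed. Neighbours among these genes did not differ beyond the spread. Antigen presentation was partial. B2M (712 ± 68.7 TPM), the light chain of class I molecules, and HLA-E (212 ± 7.86 TPM) were high, and the class II genes HLA-DRA and HLA-DRB1 had no count. Of 15 imprinted genes 13 reached 1 TPM, led by GNAS, PEG10 (703 ± 27.0 TPM), PLAGL1 (586 ± 29.9 TPM), NDN (449 ± 20.5 TPM) and MEST (435 ± 24.9 TPM), and PEG3 and GRB10 were below 1 TPM. The opposite strand holds genes over 27.6% of the exon length of MEST and 39.1% of that of PEG3, so both levels are uncertain.

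Genes that answer to stimulation differed in level and in spread. Of 23 immediate early genes 20 reached 1 TPM, with a median of 12.7 TPM. RHOB (1031, 898 and 1131 TPM) and JUND (487, 488 and 547 TPM) were highest. EGR1 had 72.8, 51.7 and 45.4 TPM and was highest in replicate 1, as were FOSB (6.13, 2.03 and 1.92 TPM) and EGR2 (2.99, 1.65 and 1.66 TPM). Without replicate 1 the mean of FOSB fell from 3.36 to 1.98 TPM. DUSP1, a phosphatase of MAP kinases, had 147, 212 and 146 TPM and was highest in replicate 2. Of genes known to answer to glucose, PDK4 had 250, 242 and 244 TPM and TXNIP, which rises with glucose in β cells, had 7.06, 7.68 and 5.47 TPM. The TXNIP values did not differ by more than 1.5-fold, and they do not tell which glucose concentration a library had.

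The 3 libraries were alike but differed by more than counting error. Pearson's r of CPM between pairs was 0.992, 0.990 and 0.995 across 32192 genes, which are not independent replicates. The common biological coefficient of variation, estimated by edgeR over 17125 genes, was 7.43%. Among the 10432 genes with at least 10 CPM the median SD/mean was 5.11%, where counting error alone gives 2.86%, and 339 of them (3.25%) exceeded 20%. Between 1 and 10 CPM the median SD/mean was 12.2% against 11.3% for counting error. How much of the spread of these low genes lay beyond counting error was not computed.

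Replicate 3 stood apart in GC-rich genes. In it 158 genes with at least 10 CPM were more than 1.5-fold above the mean of the other libraries, of which 152 (96.2%) belonged to the GC-richest quintile of genes, and none was 1.5-fold below. Past the same limit of 10 CPM, replicates 1 and 2 had 8 and 34 genes more than 1.5-fold below the others and none above. Each distance is taken from the mean of the other libraries, so a gene high in replicate 3 also counts as below in replicates 1 and 2. In the GC-richest quintile (57.0% to 74.3% GC) the median log2 distance in CPM of a library from the mean of the other libraries was -0.08 in replicate 1, -0.16 in replicate 2 and 0.22 in replicate 3. Without replicate 3 the coefficient of variation fell to 4.88%, and without the GC-richest quintile, an alternative chosen after seeing the data, to 4.96%.

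Among genes with a mean of at least 10 CPM, the 12 of largest SD/mean were all highest in replicate 3, with GC contents from 62.5% to 74.3%. IGFALS, which binds IGF complexes, led with 7.96, 6.20 and 18.1 CPM, followed by CHTF18 (9.35, 9.36 and 21.5 CPM), a replication clamp loader subunit. JSRP1, PWWP2B, RAVER1, PCSK1N (113, 93.0 and 221 CPM), SCAND1, BAD, AMN, NPDC1, CLDN3 and PKD1 completed them. Over 20% of the exon length of RAVER1, SCAND1 and BAD is overlapped by other genes. INS, with a GC content of 64.9%, lay 0.67 above the other libraries in replicate 3 on the log2 CPM scale, MAFA (67.5% GC) 0.49 and CACNA1H (66.1% GC) 0.58. Other GC-rich genes lay closer, CHGA (62.2% GC) 0.12 and PDX1 (59.0% GC) 0.05 above the other libraries. SST (54.7% GC) lay 0.01 above and NEUROD1 (40.5% GC) -0.02 from them. Levels of INS without replicate 3 were 7150 and 6607 TPM. The part of GC content in the higher INS of replicate 3 was not tested.

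In the other directions the genes with a mean of at least 10 CPM that lay furthest from the other libraries were these. In replicate 1 EGR1 was 0.57 above the others on the log2 CPM scale, followed by the mitochondrial transfer RNA genes MT-TY and MT-TC, PARD6B and CNPY2. Furthest below in replicate 1 were CHTF18 (9.35, 9.36 and 21.5 CPM in replicates 1 to 3), AATK, PKD1, LAMA5 and VASN. In replicate 2 an unnamed lncRNA gene, DUSP1, CKMT2-AS1, MYLIP and ZMAT3 were furthest above. PWWP2B, IGFALS, RAVER1, SCAND1 and PCSK1N were furthest below in replicate 2, PWWP2B at -1.10 and PCSK1N at -0.85 on the same scale. All genes named as furthest below in replicates 1 and 2 were highest in replicate 3, so these distances mirror that library at least in part. In replicate 3 RPS11P5, EGR1, CNPY2, DPP4 and ALG11 were furthest below, by no more than 0.46. RPS11P5 is overlapped over its whole length by a gene of the opposite strand, and CNPY2 and ALG11 share over 20% of theirs with genes of the same strand, so their counts are uncertain. Replicate 1 had less mitochondrial RNA, with MT-ND4 0.55 below the others.

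**Figure D5:**
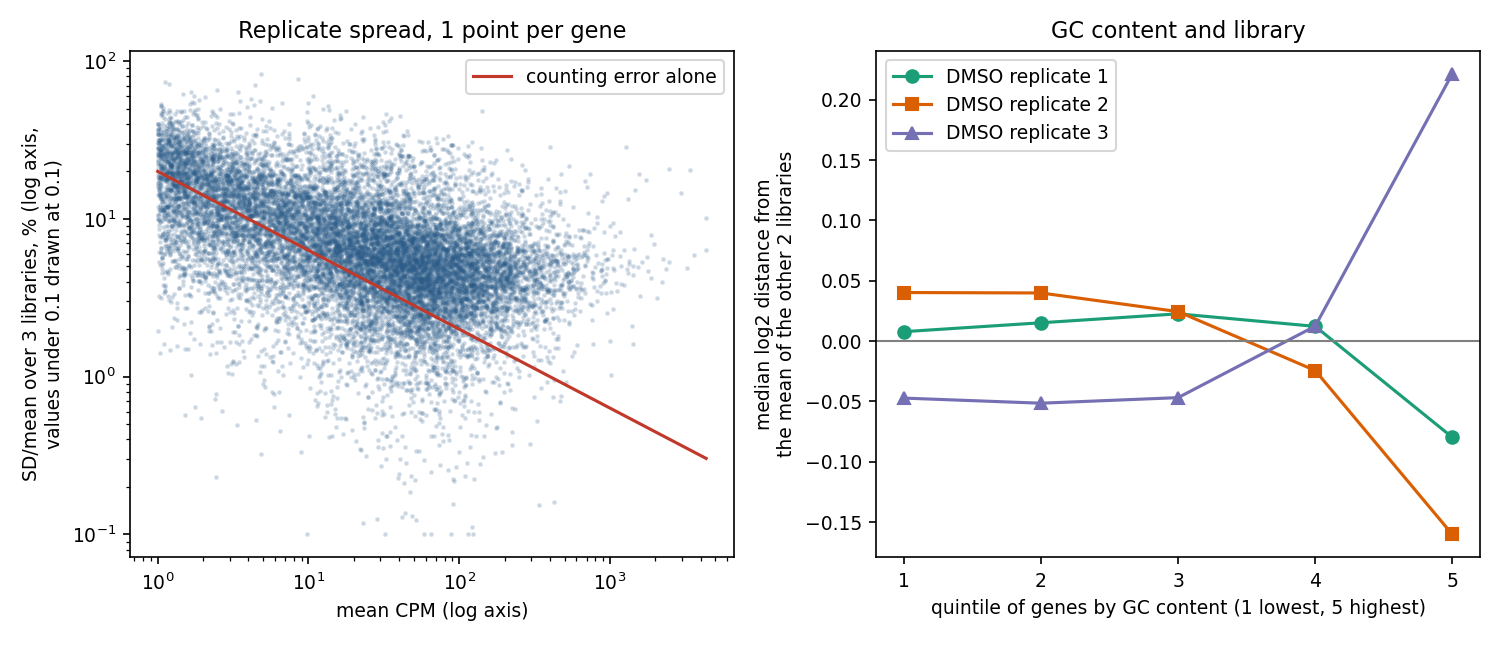
Left, SD/mean of CPM over the 3 DMSO libraries against mean CPM (both log axes, 1 point per gene with at least 1 CPM), with the red line giving counting error alone; right, median log2 distance of each library from the mean of the other libraries in quintiles of genes by GC content. The cloud leaves the line above about 10 CPM, and only in the quintile richest in GC does replicate 3 rise to 0.22 while replicates 1 and 2 fall to -0.08 and -0.16.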

How the data were processed

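The 3 DMSO libraries of 6 were grouped by their treatment label, and the AZD7762 libraries entered no value. The authors trimmed reads with cutadapt 1.18, checked them with FastQC 0.10.1, per the submitters' processing notes, mapped the trimmed pairs to GRCh37 and assigned them to genes in HTSeq-count 0.11.2. The deposited values are raw counts per Ensembl gene, without normalization. Strand and overlap settings of the counting are not given in the sources used here, so named genes with at least 20% of their exon length overlapped by other genes are reported as uncertain.

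Counts were divided by the gene total of the library (CPM). TPM was computed from the union of exons in GENCODE 44 lifted to GRCh37, which matched 58646 of 60671 identifiers (96.7%). PRSS2 and PECAM1 had no match. GC content is that of the longest transcript of each gene. The other 2025 identifiers have no symbol or length here. Some counted identifiers are absent from this GRCh37 annotation, so the annotation release, and with it the build used for counting, could not be settled from the files. Promoter sequences are from RefSeq (GRCh38.p14).

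A gene is called expressed at a mean of 1 TPM or 1 CPM and at the floor with at most 3 counts in every library. Neighbours in an order do not differ beyond the spread where their mean ± SD overlap. The coefficient of variation came from edgeR 4.0.16 (R 4.3.3) with an intercept only, after filterByExpr. The procedure was run on simulated data, but the outcome is not given here and no value rests on it. No test was made, since 1 group is described. Genes named were the 25 highest by CPM, the 10 highest nuclear protein-coding genes by TPM and lncRNA genes by CPM, and list members. Among genes with a mean of at least 10 CPM, the 12 of largest SD/mean were also named. So were the 5 genes past that limit furthest from the other libraries in each library and direction. A few further list members were named after their values were seen. Members and lists were chosen with earlier results of these data known. Replicates differed by more than sampling noise (chi-square per gene between 5.27 and 8.62), so none was a library deposited 2 times. Alternatives were TMM and DESeq2 1.42.0 scaling, other filters and thresholds, other gene lengths, leaving out mitochondrial genes, and leaving out each replicate. Some items are not reported here.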

Additional observations from a re-analysis of the deposited data

How the results depend on the processing

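Levels of 363 named genes were recomputed under each alternative. None moved by more than its spread with TMM or DESeq2 size factors, while 267 moved with the longest transcript as length, 294 with the canonical transcript and 238 without mitochondrial genes. TPM therefore order genes only as far as the exon model holds, and INS, SST, IAPP and GCG kept their order under both lengths. Without 1 replicate, FOSB was the 1 named gene with at least 1 TPM whose mean moved by more than 1.5-fold, from 3.36 to 1.98 TPM without replicate 1. The share of counts in the 20 most abundant genes was 4.63% without mitochondrial genes (5.02% otherwise). The coefficient of variation lay between 4.88% and 9.01% when 1 replicate was left out and was 4.96% without the GC-richest quintile of genes, chosen after seeing the data. The median SD/mean over genes with at least 1 CPM, 6.40%, was 5.11% at 10 CPM and lay between 4.46% and 5.90% without 1 replicate. At 5 TPM in place of 1 the expressed members were 4 in place of 8 for glucose sensing, 7 of 11 for other islet cells, 2 of 5 for duct, 1 of 2 for mesenchyme, 0 of 1 for muscle and 1 of 6 for HOX genes. Duct had 3 with the longest and 3 with the canonical transcript, muscle 0 at 1 CPM, and leukocytes 2 at 0.5 TPM and between 1 and 2 without 1 replicate. The mean Pearson r between replicates, 0.992, was 0.998 on log2(CPM + 1), 0.996 without mitochondrial genes and between 0.990 and 0.995 without 1 replicate, and Spearman's rho was 0.960. No paired analysis was possible because only 1 group is described. The depth allows levels down to 0.102 to 0.146 CPM per library, below which absence cannot be told from low expression. The glucose concentration and kit of each library are not given in the sources used here, the labels do not tie a library to a culture, and 3 libraries of 1 line limit what the spread stands for.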
